A study of Mus musculus with 96 samples.

Results

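The transcription factor genes Wt1, Onecut1 and Emx2 and the antisense RNA gene Emx2os were followed by repeat length and age in the striatum of Huntington's disease knock-in mice. These are 4 of the 39179 Ensembl gene identifiers in the deposited tables, and they were found by their symbols. They were chosen by their measured levels: earlier results of these data had them higher in mice with the longest CAG repeat than in wild types. The differences of Q140 mice from wild-type and Q92 mice, and the growth of the Q140 difference with age, therefore entered the choice and are given as descriptions with no test. Tests were kept to the shorter repeats, the sexes, the wild-type cohorts and the spread inside groups.

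The study sequenced mRNA of the striatum from C57BL/6 mice, 96 libraries in 12 groups of 8, with 4 females (F1 to F4) and 4 males (M1 to M4) in each group. The knock-in mice were labelled heterozygous and carried, beside a normal allele, an Htt allele with a CAG length label of 20, 50, 92 or 140 (Q20, Q50, Q92 and Q140), a repeat that encodes the glutamine tract of huntingtin. They were 6 or 10 months old. Each age had 16 wild types, 8 housed alongside Q20 mice and 8 alongside Q50 animals. For the Q92 and Q140 alleles the housing label names their own genotype alone, so that genotype and housing cohort cannot be told apart there. The allele is in the germline and hence in every cell of the animal, and the repeat lengths are labels of the lines, not measurements of each mouse. The controls are described as littermates, but the labels tie no animal to a litter and only number the libraries, so p-values measure the spread between these libraries. In whole tissue, fewer cells of a type and less RNA per cell cannot be told apart.

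WT1 is a zinc finger transcription factor of the developing kidney and gonads that stays on in the podocytes of the adult kidney. ONECUT1, also called HNF6, is a transcription factor with a cut domain and a homeodomain that acts in the developing liver and pancreas and in some developing neurons. EMX2 is a homeodomain transcription factor that patterns the developing cerebral cortex and hippocampus, and Emx2os is a noncoding RNA read from the strand opposite to Emx2. In many adult cells such regulators are silent, and Polycomb complexes, which mark histones at CpG-rich promoters, are known to keep developmental regulators off in projection neurons of the striatum.

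In the GENCODE M21 annotation of build GRCm38, Wt1 (ENSMUSG00000016458) lies on the plus strand at chr2:105126529-105173616 and Onecut1 (ENSMUSG00000043013) on the plus strand at chr9:74861921-74891781. Emx2 (ENSMUSG00000043969) lies on the plus strand at chr19:59458372-59465357 and Emx2os (ENSMUSG00000087095) on the minus strand at chr19:59425104-59458635. The 2 gene spans overlap by 264 bp at their 5′ ends, and whether the counting used strand is not given in the sources used here, so reads in that overlap could belong to either gene. The start regions are printed because CpG-rich starts are what the known silencing of such genes acts on. Of the 4 genes, 2 have a window of their own in the RefSeq promoter table of GRCm38.p6 (250 bases before to 50 after the start, 5′ to 3′ on the gene's strand), and the window of Wt1os, the antisense neighbour of Wt1, covers the annotated start of Wt1. RefSeq places the start of Emx2 downstream of the GENCODE start, so the Emx2 window lies wholly inside the GENCODE gene span, and it lies over the 5′ end of Emx2os. Capitals mark GGGCGG, the GC box that SP1 proteins bind.
Onecut1, chr9:74861671-74861970, plus strand: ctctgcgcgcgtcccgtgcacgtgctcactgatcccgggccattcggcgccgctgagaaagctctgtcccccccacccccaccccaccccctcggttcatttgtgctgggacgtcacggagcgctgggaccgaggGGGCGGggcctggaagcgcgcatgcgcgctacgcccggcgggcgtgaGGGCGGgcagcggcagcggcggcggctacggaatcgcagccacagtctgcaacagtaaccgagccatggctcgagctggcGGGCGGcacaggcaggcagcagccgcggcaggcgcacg
Emx2, chr19:59458440-59458739, plus strand: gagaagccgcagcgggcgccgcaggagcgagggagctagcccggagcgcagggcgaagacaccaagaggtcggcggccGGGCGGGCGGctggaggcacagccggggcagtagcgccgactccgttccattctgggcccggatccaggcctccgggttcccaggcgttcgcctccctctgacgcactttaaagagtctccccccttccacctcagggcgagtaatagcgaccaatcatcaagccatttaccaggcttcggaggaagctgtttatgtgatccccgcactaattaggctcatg
Wt1os, chr2:105126461-105126760, minus strand: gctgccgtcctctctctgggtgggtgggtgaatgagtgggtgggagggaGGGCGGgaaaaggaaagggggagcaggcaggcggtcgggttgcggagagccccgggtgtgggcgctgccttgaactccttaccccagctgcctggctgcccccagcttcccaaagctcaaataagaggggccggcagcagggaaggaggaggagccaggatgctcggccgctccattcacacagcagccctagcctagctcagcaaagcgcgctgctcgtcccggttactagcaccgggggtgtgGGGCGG
The windows held 38, 26 and 16 CpG dinucleotides in the order printed, against a median of 7 over 32851 RefSeq windows of the same length. Their GC content was 73.0%, 64.3% and 66.7%, against a median of 52.7%. GGGCGG was found 3 times in the Onecut1 window and 2 times in each of the others, the copies in Emx2 overlapping each other, and 35.7% of all windows held it on either strand. The Emx2 window also held 1 copy each of CCAAT (in 37.4% of windows), of TAATTA, a homeodomain core (5.29%), and of GCGNGGGNG, a pattern that EGR and WT1 zinc fingers bind (12.3%). None of TATAAA, TGACGTCA and the ONECUT patterns ATCGAT and ATTGAT was found on either strand of the 3 windows, which says only that these letters are not there.

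The libraries held 29.1M to 40.2M expected counts, with a median of 36.5M at 6 months and 32.4M at 10 months. Levels are CPM, counts scaled to a common library total and adjusted by trimmed mean of M-values (TMM) factors. Levels are given as mean ± SD over the 8 libraries of a knock-in group or the 16 wild types of an age, and the ± of a log2 fold change is its standard error. Htt, the targeted gene, was lower in Q140 than in wild type by a log2 fold change of -0.14 ± 0.041 at 6 months (edgeR adjusted p 0.00726) and -0.31 ± 0.042 at 10 months (edgeR adjusted p 4e-07), a total that cannot separate the alleles. At 10 months 3 libraries (Q20 F4 and M4 and Q92 F1) stood apart with striatal projection neuron markers more than 1 log2 unit below the median of the age and high thalamus markers. The Wt1 results in Q92 and the differences of Onecut1 and Emx2os between Q92 and Q20 are also given without them. Other results that use them, such as Q20 against wild types, Q140 against Q92 and listed genes in Q92, are given with them only.

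Wt1 was close to the limit of detection in every group except Q140 and 10-month Q92. In wild types its level ran from 0.0256 through a median of 0.0949 to 0.178 CPM at 6 months, and from 0 through 0.0323 to 0.195 CPM at 10 months, which is 0 to 7 counts in a library. In Q140 mice the lowest, median and highest levels were 0.433, 0.982 and 1.7 CPM at 6 months (16 to 64 counts) and 1.89, 3.75 and 5.17 CPM at 10 months (56 to 172 counts). All 8 Q140 libraries at 6 months lay above every library of every other genotype of that age, and all 8 at 10 months lay above every one of the 80 libraries of other genotypes and above every 6-month Q140 library. Over all genes, 0.34% at 6 months and 0.769% at 10 months had all 8 Q140 libraries above every wild type, and 0.929% and 1.94% had at least 7. For 0.6% all 8 at 10 months lay above every 6-month Q140 library. The share above every library of all other genotypes was not taken. Mean levels of 1.04 ± 0.479 and 3.66 ± 1.05 CPM were 10.6 times and 58.3 times the wild-type means of 0.0983 ± 0.0453 and 0.0627 ± 0.059 CPM. The fitted log2 fold changes were 3.38 ± 0.26 and 5.88 ± 0.29, the largest of 17339 and 17285 genes tested. Across all genes 23.7% at 6 months and 19.2% at 10 months passed the threshold in this contrast, which chose the members and so supports nothing about them. The Q140 values of Wt1 rest on ample counts, while the wild-type level is set by a few reads, so the fold depends on the constant added before the logarithm.

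Onecut1 was likewise near the limit of detection in other genotypes and was higher in Q140 at both ages, with more spread than Wt1 at 6 months. Wild types ran from 0.0277 through 0.109 to 0.249 CPM at 6 months and from 0 through 0.122 to 0.244 CPM at 10 months. Q140 libraries ran from 0.133 through 0.87 to 1.96 CPM at 6 months and from 1.68 through 3.02 to 4.01 CPM at 10 months. At 6 months 7 of 8 Q140 libraries lay above every library of the other genotypes, and the exception, F2 at 0.133 CPM, lay inside the wild-type range. At 10 months all 8 lay above all 80 libraries of other genotypes, and 6 of 8 lay above every 6-month Q140 library. Of all genes, 0.929% had at least 7 Q140 libraries above every wild type at 6 months, and 0.769% had all 8 at 10 months. The shares above every other genotype, and with 6 of 8 above every 6-month Q140 library, were not taken. The means of 0.921 ± 0.584 and 2.82 ± 0.845 CPM were 7.58 times and 24.6 times the wild-type means of 0.122 ± 0.0612 and 0.115 ± 0.0771 CPM. The log2 fold changes of 2.88 ± 0.34 and 4.56 ± 0.36 were the second largest of all genes at both ages.

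Emx2 differed from these genes in being expressed in every library of every genotype. Wild-type levels ran from 4.28 through 5.6 to 7.03 CPM at 6 months and from 3.76 through 4.97 to 6.69 CPM at 10 months. In Q140 mice they ran from 4.9 through 5.48 to 6.4 CPM at 6 months, inside the wild-type range, and from 5.84 through 7.89 to 9.5 CPM at 10 months. At 10 months 6 of 8 Q140 libraries lay above all libraries of the other genotypes at both ages, and M3 at 5.84 and F3 at 6.64 CPM did not. The share of all genes with such a count was not taken, so it is a description only. The log2 fold change against wild type was -0.0135 ± 0.0804 at 6 months and 0.66 ± 0.14 at 10 months (means 5.47 ± 0.523 against 5.54 ± 0.806, then 7.92 ± 1.29 against 4.99 ± 0.683 CPM). In the libraries that stood apart with high thalamus markers, Emx2 was 1.4 (Q20 F4), 2.49 (Q20 M4) and 3.94 CPM (Q92 F1). The thalamus marker level of Q140 at 10 months was 3.53 ± 0.81 log2 CPM, against 4.6 ± 1.13 and 4.5 ± 1.04 in the wild-type cohorts. With that level as a covariate the growth of Emx2 was smaller, and the cause was not tested.

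Emx2os followed Emx2 in timing and had the larger fold. Wild types ran from 1.49 through 2.38 to 3.1 CPM at 6 months and from 1.86 through 2.51 to 3.04 CPM at 10 months. Q140 libraries ran from 2.23 through 2.74 to 3.23 CPM at 6 months and from 3.68 through 5.29 to 6.42 CPM at 10 months. The 6-month ranges overlapped, while all 8 Q140 libraries at 10 months lay above every library of every other genotype and above every 6-month Q140 library. Of all genes, 0.769% had all 8 above every wild type at 10 months, and 0.6% had all 8 above every 6-month Q140 library. The share above every other genotype was not taken, so the count is a description only. The log2 fold change was 0.14 ± 0.10 at 6 months (2.68 ± 0.307 against 2.44 ± 0.457 CPM) and 1.14 ± 0.12 at 10 months (5.28 ± 1.02 against 2.38 ± 0.369 CPM). In the libraries that stood apart, Emx2os was 1.4 (Q20 F4), 1.15 (Q20 M4) and 2.3 CPM (Q92 F1). By size of the log2 rise at 10 months Emx2os ranked 31 and Emx2 122 of 17285 genes; at 6 months they ranked 3211 and 9780 of 17339. The ranks are descriptions and no test.

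**Figure D1:**
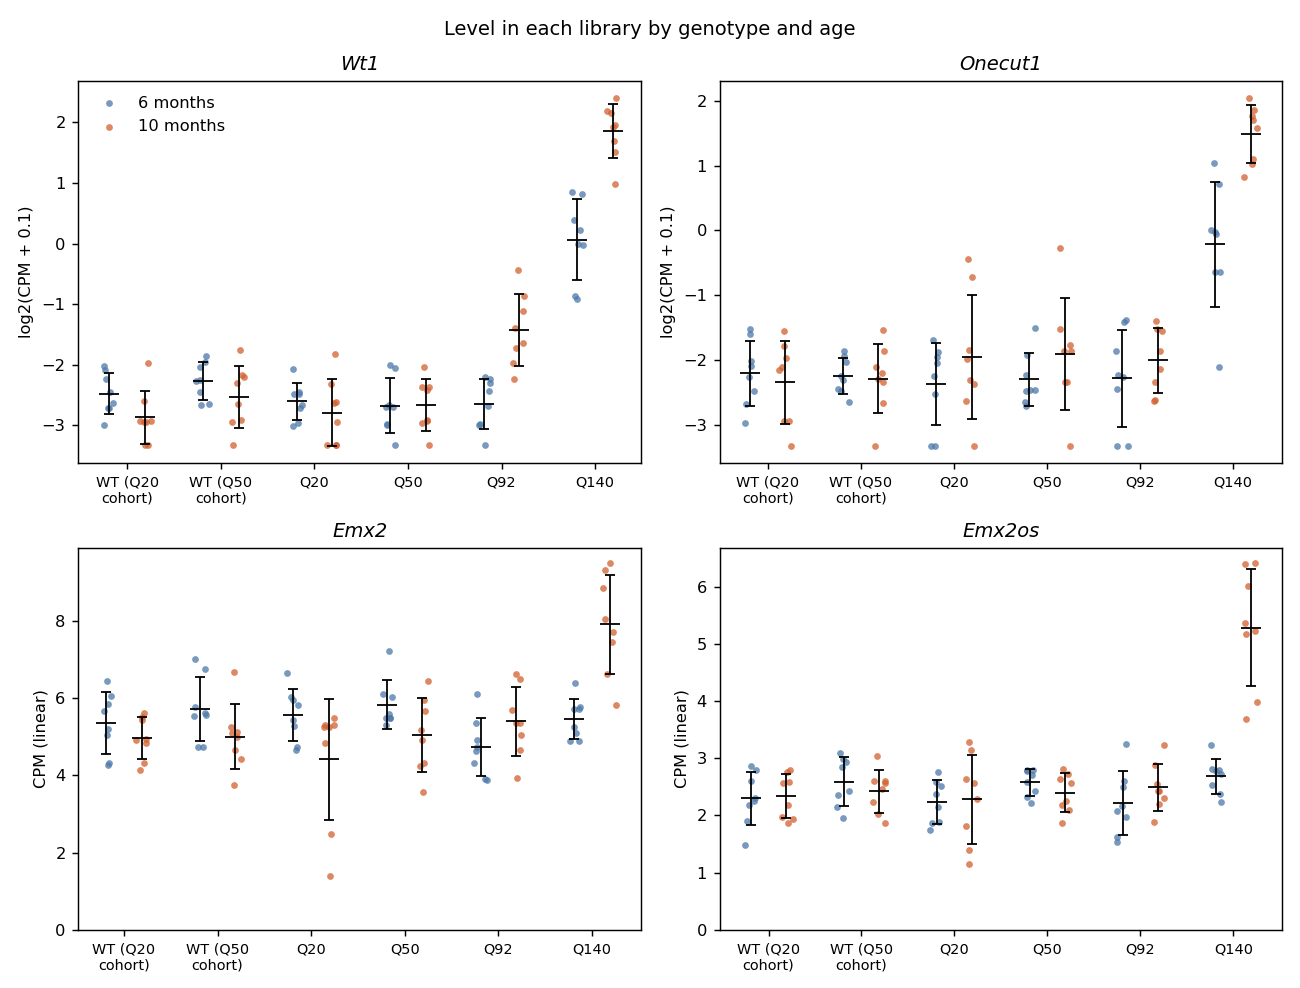
Level of each gene in every library by genotype (x axis) and age (colour), as log2(CPM + 0.1) for Wt1 and Onecut1 and as CPM on a linear axis for Emx2 and Emx2os; points are libraries and bars are the mean and SD of 8. Wt1 and Onecut1 stood out in Q140 at both ages, Emx2 and Emx2os in Q140 at 10 months, with Wt1 also raised in Q92 at 10 months.

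Levels between genes can be compared only per length, for which the authors' FPKM serve. In Q140 at 10 months the mean FPKM was 3.62 ± 0.666 for Emx2, 1.57 ± 0.441 for Wt1, 1.07 ± 0.214 for Emx2os and 0.733 ± 0.209 for Onecut1. Wt1 at its highest group mean thus stayed below Emx2 per length of transcript. Over the 12 groups ordered by mean CPM, Wt1 in Q140 at 10 months and Emx2os in Q140 at 10 months were the only groups whose range did not overlap the next group down. For Wt1 that next group was Q140 at 6 months and the third was Q92 at 10 months, whose ranges overlapped, as did all other neighbours in the order of each gene.

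Onset by repeat length was tested in Q92, Q50 and Q20. Wt1 was the single member of the 4 that passed the threshold in Q92, at 10 months only. Its level there was 0.112 at the lowest, 0.252 at the median and 0.638 CPM at the highest, with 4 to 20 counts in a library and 79 in all. In the order F1 to F4 and M1 to M4 the libraries stood at 0.222, 0.363, 0.154, 0.638, 0.112, 0.282, 0.204 and 0.451 CPM. Of these 8, 6 lay above every wild type of the age, 6 lay above every Q20 library of the age and 7 lay above every 6-month Q92 library. Such a count or a higher one was found for 0.289%, 2.25% and 2.23% of all genes tested. Against Q20, a group outside the contrast of Q140 with wild types, Wt1 rose 5.29-fold (log2 2.40 ± 0.46, 95% interval 1.50 to 3.31, edgeR adjusted p 0.00472), where 1.71% of all genes passed and 1.04% were higher. Against wild types it rose by log2 2.28 ± 0.37 (95% interval 1.55 to 3.01, edgeR adjusted p 0.000403), where 0.422% passed and 0.231% were higher. These wild types are also a side of the contrast that chose the genes, so this second test is not independent of the choice. The mean of 0.303 ± 0.174 CPM was 4.83 times the wild-type mean, 5.55 times the Q20 mean of 0.0546 ± 0.0635 CPM and below the 6-month Q140 mean. Of the Q140 libraries at 6 months, 6 of 8 lay above all of these Q92 libraries, a count whose share over all genes was not taken.

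The Wt1 rise in Q92 rested on few reads. Wt1 entered the genes tested through the Q140 libraries: in fits of only the groups compared, Q92 with Q20 or with wild types, it fell under the filter on low counts and has no value, and with no filter it was 2.41 against Q20 (edgeR adjusted p 0.00588). It did not pass on log2(FPKM + 1), nor in females or males alone (edgeR adjusted p 0.301 and 0.374 against Q20), although the direction was kept in both sexes. Without the 3 libraries that stood apart it was 2.11 against Q20 (edgeR adjusted p 0.0118) and 2.38 against wild types (edgeR adjusted p 7.61e-05), and with the thalamus marker level as a covariate it was 2.29 and 2.32 (edgeR adjusted p 0.00617 and 0.000169). In Q92 at 10 months 0 of 15 projection neuron and 0 of 10 thalamus markers passed against either group, while against Q20 2 of 10 astrocyte markers and 1 of 10 meninges markers were lower and 1 of 6 podocyte markers was higher, whose part in the Wt1 rise was not tested.

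The other members gave no called change in Q92. Onecut1 in Q92 at 10 months ran from 0.0615 through 0.151 to 0.281 CPM, with 2 of 8 libraries above every wild type, and its log2 fold change was -0.40 ± 0.53 against Q20 and 0.50 ± 0.50 against wild types (95% interval -0.49 to 1.48, edgeR adjusted p 0.827). The Q20 libraries F4 at 0.506 CPM and M4 at 0.638 CPM, which are among the 3 that stood apart, and the Q50 library F1 at 0.725 CPM were higher than any Q92 library. Without those 3 libraries the difference of Onecut1 from Q20 turned to 0.62 and did not pass. Emx2 was 5.4 ± 0.894 CPM and Emx2os 2.49 ± 0.416 CPM in Q92 at 10 months, with log2 fold changes against wild types of 0.11 ± 0.14 (95% interval -0.17 to 0.38) and 0.062 ± 0.13 (-0.20 to 0.32). At 6 months 0 of 4 genes passed in Q92, with edgeR adjusted p of at least 0.363 against Q20 (0.11% of all genes passed) and at least 0.1 against wild types (5.44% passed, and 6 of 15 projection neuron markers were lower and 8 of 10 thalamus markers higher); unadjusted, 1 gene in each, Emx2, was under 0.05, at -0.23 ± 0.0934 and -0.22 ± 0.0816. The thalamus marker level of Q92 at 6 months was 5.02 ± 0.63 log2 CPM, against 4.53 ± 0.75 and 3.4 ± 0.48 in wild types housed with Q20 and Q50 mice. Wt1 in Q92 at 6 months was 0.0658 ± 0.0447 CPM, with 0 to 4 counts in a library.

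In Q50 and Q20 mice 0 of 4 genes passed at either age, against wild types of their own housing cohort. The smallest edgeR adjusted p was 1 at both ages in Q50 and 1 and 0.394 in Q20, and 0 of 4 were under an unadjusted 0.05. The share of all genes that passed was 0.0634% and 0.0636% in Q50 and 0.0231% and 0.0405% in Q20. The wild-type cohorts differed in 0 of 4 genes at both ages, with a smallest edgeR adjusted p of 0.529 and 0.684, where 0% and 0.347% of all genes passed (at 6 months 0 by edgeR, with 2574 genes under an unadjusted 0.05). For Wt1 and Onecut1 these comparisons rest on a few reads a library, so that a small change would not have been detectable at this depth. Set side by side, the Q140 libraries of Wt1 and Onecut1 were higher than Q92 by log2 3.92 ± 0.35 and 2.79 ± 0.42 at 6 months and by 3.60 ± 0.30 and 4.07 ± 0.44 at 10 months. For Emx2 and Emx2os the same differences were 0.21 ± 0.0935 and 0.27 ± 0.12, then 0.55 ± 0.16 and 1.08 ± 0.15. Across all genes 6.38% and 3.3% passed in this contrast, which shares the Q140 libraries with the choice of the genes.

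**Figure D2:**
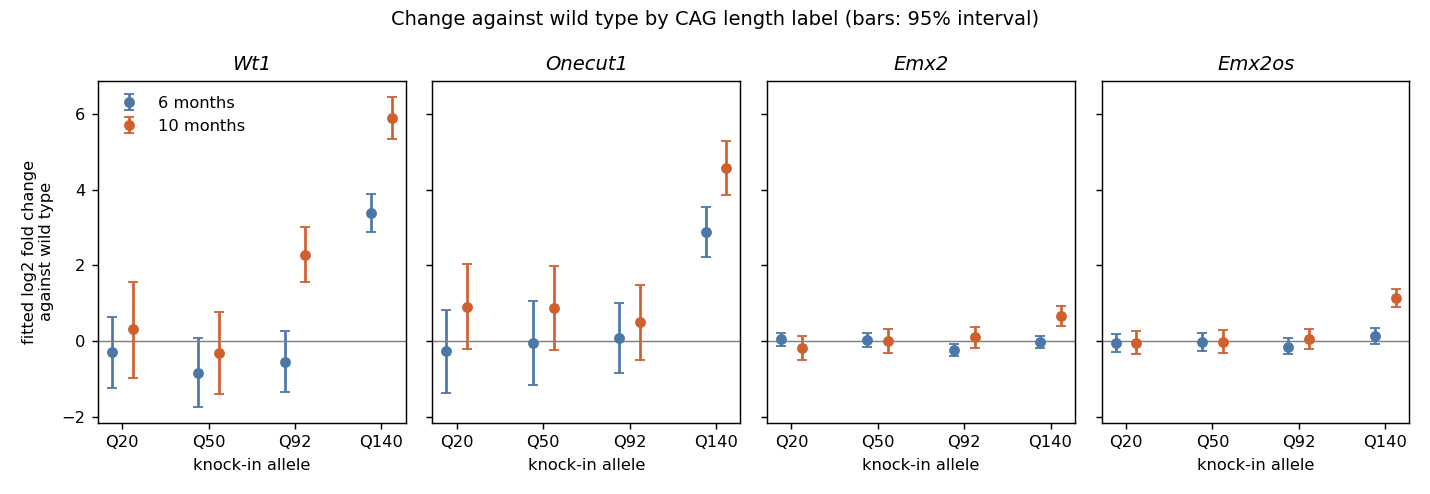
Fitted log2 fold change against wild type (y axis) for the Q20, Q50, Q92 and Q140 alleles (x axis) at 6 and 10 months (colour), each point with its 95% interval; Q20 and Q50 are set against wild types of their housing cohort, Q92 and Q140 against both cohorts. The Q140 points chose the genes and are descriptions: Wt1 stood at 3.38 and 5.88, Onecut1 at 2.88 and 4.56, Emx2 at -0.0135 and 0.66 and Emx2os at 0.14 and 1.14 at the earlier and later age, and Wt1 in Q92 at 10 months stood at 2.28.

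Growth from 6 to 10 months was measured as the age difference in a knock-in group minus that in wild types. In Q140 the 10-month mean was 3.52 times the 6-month mean for Wt1, 3.06 times for Onecut1, 1.97 times for Emx2os and 1.45 times for Emx2. Beyond the wild-type age difference, the log2 growth was 2.48 ± 0.45 for Wt1, 1.70 ± 0.55 for Onecut1, 1.02 ± 0.17 for Emx2os and 0.68 ± 0.16 for Emx2. All 8 libraries at 10 months exceeded every 6-month library for Wt1 and Emx2os, 7 did for Emx2 and 6 for Onecut1. Over all genes 0.6% had all 8 above, and 1.22% passed the threshold for growth. The share with 6 or 7 above was not taken. In Q92, which the rule did not use, Wt1 rose by log2 2.81 ± 0.57 (95% interval 1.71 to 3.92, edgeR adjusted p 0.0142), where 0.0679% of all genes passed and 0.0623% were higher. This difference subtracts the wild-type age change, which also entered the choice of the genes, so it is not independent of it; within Q92 alone the 10-month mean was 4.61 times the 6-month mean. Leaving out the 6-month Q92 library F2 ended the call of growth in Q92 (log2 2.66, edgeR adjusted p 0.055), and without the 3 libraries that stood apart it was 2.89 (edgeR adjusted p 0.00468). The other Q92 growth values were 0.42 ± 0.69 for Onecut1, 0.34 ± 0.16 for Emx2 and 0.21 ± 0.17 for Emx2os, with edgeR adjusted p of 0.856, 0.387 and 0.644. In wild types 0 of 4 genes passed for a change with age (smallest edgeR adjusted p 0.25), where 9.5% of all genes passed. Wt1 stood there at log2 -0.69 ± 0.37 (edgeR unadjusted p 0.0663), a fall that rests on a few reads. Subtracting it makes the growth values of Wt1 larger. The names of the libraries hold separate runs of numbers for each age, so within a genotype age and whatever those numbers mark cannot be told apart.

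Sex was balanced and had not been used to choose the genes. In Q140 mice 0 of 4 genes differed between males and females at either age, with a smallest edgeR adjusted p of 1 at 6 months and 0.979 at 10 months, where 0.0692% and 0.0752% of all genes passed. Wt1 at 10 months was 4.19 ± 1.02 CPM in 4 females and 3.13 ± 0.876 CPM in 4 males. Onecut1 was 2.97 ± 0.978 and 2.66 ± 0.802 CPM, Emx2 7.75 ± 0.941 and 8.09 ± 1.7 CPM, and Emx2os 5.02 ± 0.972 and 5.54 ± 1.15 CPM in the same animals. At 6 months the 4 Q140 females were the more spread, with Wt1 at 1.7, 0.452, 0.433 and 1.66 CPM in F1 to F4 against 0.888 to 1.21 CPM in the males.

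Single Q140 libraries tended to hold Wt1 and Onecut1 at matching ranks. At 6 months F1 and F4 were highest for both genes, with Onecut1 at 1.96 and 1.55 CPM, and F2 and F3 were lowest for Wt1. Pearson's r of log2 levels over these 8 libraries was 0.88 (exact permutation p 0.00255, 0.112 adjusted over 44 relations) and Spearman's rho 0.929 (exact permutation p 0.00223, adjusted 0.0982), and r was 0.84 without the 2 libraries farthest from the median of Wt1. At 10 months r was 0.66 (exact permutation p 0.0722, adjusted 0.615) and rho 0.571, and r fell to 0.15 without 2 libraries. Emx2 and Emx2os gave an r of -0.27 at 6 months (exact permutation p 0.524, adjusted 0.992; rho -0.143) and 0.80 at 10 months (exact permutation p 0.0177, adjusted 0.388; rho 0.81), the latter 0.31 without the 2 farthest libraries. None of the 44 relations, which cover all pairs of the 4 genes and each gene with 4 marker lists at both ages, passed the threshold after adjustment. At 10 months the library M3 was lowest for Wt1 and Emx2 and next to lowest for Onecut1 and Emx2os, and F3 was next to lowest for Wt1 and Emx2 and lowest for Onecut1 and Emx2os.

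**Figure D3:**
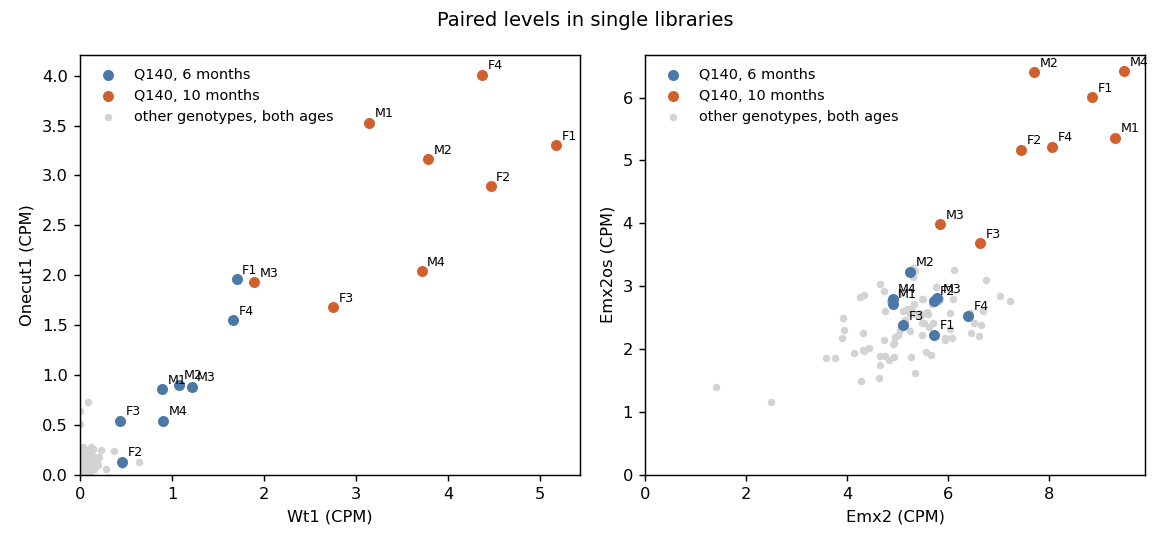
Level of Onecut1 against Wt1 (left) and of Emx2os against Emx2 (right) in single libraries, both axes in CPM; coloured points are Q140 libraries named by sex and replicate, and grey points are the 80 libraries of other genotypes. Wt1 and Onecut1 were high in the same libraries at 6 months (r 0.88). All Q140 libraries at 10 months lay above 3.29 CPM of Emx2os, the highest level in the other genotypes. The share of all genes with such a separation was not taken.

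The annotated genes around the members were read for a change along the chromosome. Wt1os, which starts 18 bp from Wt1 on the other strand, was at 0 counts in all 96 libraries. Gm16551, a processed transcript that ends 1.8 kb before Onecut1 on the same strand, ran from 0.029 through 0.579 to 0.914 CPM in Q140 at 10 months, against 0.0504 ± 0.0528 CPM in wild types. It was 11.8-fold higher (log2 3.57 ± 0.50, edgeR adjusted p 9.83e-07), and the ranges overlapped at the lowest Q140 library. Gm16551 passed the filter on low counts mostly through these Q140 libraries, so its entry into the test was not independent of its level there. Its other 10-month means were 0.185 ± 0.187 CPM in Q20, 0.161 ± 0.101 in Q50 and 0.0911 ± 0.0856 in Q92. Wild types housed with Q20 and Q50 mice stood at 0.0818 and 0.0191 CPM. At 6 months it was too low to be tested, with a Q140 level of 0.0927 ± 0.0707 CPM. Gm20649, a noncoding RNA that overlaps the start of Onecut1 on the same strand, was too low to be tested, with at most 0.822 CPM, and reads of Gm20649 and Onecut1 could be split between them. Farther out, Arpp19, which encodes a phosphatase inhibitor and lies 145.8 kb after Onecut1, fell from 609 ± 59.7 to 344 ± 55.9 CPM at 6 months (log2 -0.83 ± 0.068, edgeR adjusted p 6.32e-13) and from 572 ± 87.7 to 349 ± 50.7 CPM at 10 months (-0.72 ± 0.17, edgeR adjusted p 0.00198). Rcn1, 212.7 kb after Wt1, fell by log2 0.32 at 6 months (edgeR adjusted p 0.00074), and Myo5a, 179.2 kb after Onecut1, fell by 0.25 at 10 months (edgeR adjusted p 0.000687). Pdzd8, Slc18a2 and Rab11fip2 around Emx2 and Emx2os did not pass at either age. Among the neighbours tested, leaving out Emx2 and Emx2os as members, Gm16551 was called higher and the other called genes were lower.

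Of 20 listed targets and partners of WT1, 16 were tested in Q140 against wild type. At 6 months 3 were higher and 2 lower, and at 10 months 2 were higher and 4 lower. Over all genes 11.7% were higher and 12% lower at 6 months, and 10.8% and 8.45% at 10 months. The median log2 fold change of the list was -0.01 and -0.063, against 0.0079 and 0.0053 over all genes. Cited2, a transcriptional coregulator that acts with WT1 in adrenal development, rose 1.23-fold and 1.24-fold (edgeR adjusted p 0.0012 and 0.0011), from 27.5 ± 3.55 to 33.8 ± 2.32 CPM at 6 months. It was the listed gene that also passed in Q92 at 10 months against wild types (log2 0.28, edgeR adjusted p 0.0487). Against Q20 it did not pass (log2 0.06, edgeR adjusted p 0.721). Wtip, a WT1-interacting LIM protein, rose 1.32-fold at 10 months (edgeR adjusted p 0.000316), and Sall1, a zinc finger factor of kidney development, rose 1.12-fold at 6 months (edgeR adjusted p 0.0125). Bcl2, an inhibitor of cell death, was 1.23-fold lower at 10 months (edgeR adjusted p 0.000592). Wnt4, a secreted signal of kidney development that was picked after its values were seen, was 2.18-fold lower at 10 months (4.41 ± 1.7 to 2.03 ± 0.392 CPM, edgeR adjusted p 0.000973). The podocyte genes Nphs1 and Podxl, known WT1 targets of the kidney, did not pass at 6 months. At 10 months Nphs1 did not pass, at 2.59 ± 0.406 against 2.7 ± 0.395 CPM, and Podxl was 1.15-fold lower (edgeR adjusted p 0.024).

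Of 15 genes listed with the ONECUT family, 6 were tested at 6 months and 7 at 10 months, and 3 were higher and 0 lower at each age, with medians of 0.356 and 0.122. The shares over all genes were 11.7% higher and 12% lower at 6 months, and 10.8% and 8.45% at 10 months. Onecut2, the paralog of Onecut1, ran from 64.2 through 72.9 to 86.2 CPM in Q140 at 10 months, against 50.3 ± 7.61 CPM in wild types. All 8 libraries lay above every wild type, as for 0.769% of all genes. The rise was 1.47-fold (edgeR adjusted p 0.0101), while at 6 months the log2 difference was 0.07 ± 0.099. The call at 10 months was lost with the thalamus marker level as a covariate (log2 0.35, edgeR adjusted p 0.0633), with the L number in the library names as a covariate (0.43, edgeR adjusted p 0.0782) and in females alone (0.44, edgeR adjusted p 0.407). Reads of sequence shared with Onecut1 could be split between the paralogs. Isl1, a factor of striatal and motor neurons that ONECUT proteins regulate in the spinal cord, rose 1.18-fold and 1.15-fold (edgeR adjusted p 0.000495 and 0.0205). Onecut3, the third family member, was too low to be tested, at 0.0227 ± 0.0351 CPM in Q140 at 10 months.

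Of 16 forebrain patterning genes that act with Emx2 in the embryo, 13 were tested, with 0 higher at either age, 4 lower at 6 months and 2 lower at 10 months, and medians of -0.16 and -0.226. The shares over all genes were 11.7% higher and 12% lower at 6 months, and 10.8% and 8.45% at 10 months. The 6-month count fell from 4 to 2 in 10 of 24 fits with 1 library left out, namely Q140 F1, F3, F4, M1, M3 or M4, F1 or F4 of the wild types housed with Q20 mice, or F2 or M3 of those housed with Q50 mice. Wnt8b, a signal of the cortical hem, was 5.11-fold and 6.6-fold lower in Q140 (edgeR adjusted p 4.37e-11 and 1.99e-10), from 2.31 ± 0.837 to 0.451 ± 0.206 CPM and from 2.2 ± 0.534 to 0.331 ± 0.0623 CPM. Wnt8b was also lower in Q92 at 10 months against wild types (log2 -1.31 ± 0.23, edgeR adjusted p 0.00109), the direction opposite to that of Wt1 in the same libraries. Against Q20 the difference of Wnt8b was -0.72 ± 0.26 and did not pass (edgeR adjusted p 0.139). Gli3, a hedgehog pathway factor, was 1.28-fold lower at 10 months (edgeR adjusted p 0.0167). Emx1, the closest relative of Emx2, was 0.36 ± 0.273 against 0.332 ± 0.411 CPM at 10 months and did not pass at either age.

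All 32 genes of the Polycomb list were tested, with 5 higher and 3 lower at 6 months and 10 higher and 2 lower at 10 months, and medians of 0.012 and 0.049. The shares over all genes were 11.7% higher and 12% lower at 6 months, and 10.8% and 8.45% at 10 months. The list also holds Kdm6a and Kdm6b, demethylases that remove a histone mark of Polycomb. Kdm6b, picked after its values were seen, is counted among the higher genes at both ages (log2 0.27 at each, edgeR adjusted p 0.00156 and 0.00632). Sfmbt2, a Polycomb protein that binds DNA with YY1, rose 2.38-fold and 3.03-fold (edgeR adjusted p 3.29e-15 and 3.72e-16). Its level went from 4.14 ± 0.766 to 9.79 ± 1.53 CPM and from 4.12 ± 0.74 to 12.5 ± 0.948 CPM. All 8 of its Q140 libraries lay above every wild type at both ages, as for 0.34% and 0.769% of all genes. Cbx8, a chromodomain subunit of Polycomb repressive complex 1, rose by 1.53-fold and 1.8-fold (edgeR adjusted p 1.62e-09 and 1.96e-15). Epop, an accessory protein of Polycomb repressive complex 2, was 1.73-fold and 1.53-fold lower (edgeR adjusted p 7.3e-06 and 0.000154). Of the enzyme and core subunits of that complex, Ezh1 (log2 0.01 and -0.04), Ezh2 (-0.04 and -0.09), Eed (0.06 and 0.07) and Suz12 (0.02 and 0.03) did not pass at either age. Rbbp7 was lower at 6 months (log2 -0.15, edgeR adjusted p 1.56e-05) and did not pass at 10 months. Rbbp4 was higher at 10 months (log2 0.07, edgeR adjusted p 0.0163) and did not pass at 6 months. Cbx8, Epop, Rbbp4 and Rbbp7 were picked after their values were seen. In Q92 at 10 months 0 of 32 passed against wild types, with Sfmbt2 at log2 0.34 ± 0.11 (edgeR adjusted p 0.186), and 1 was higher against Q20. Of all genes 0.422% and 1.71% passed in these comparisons.

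**Figure D4:**
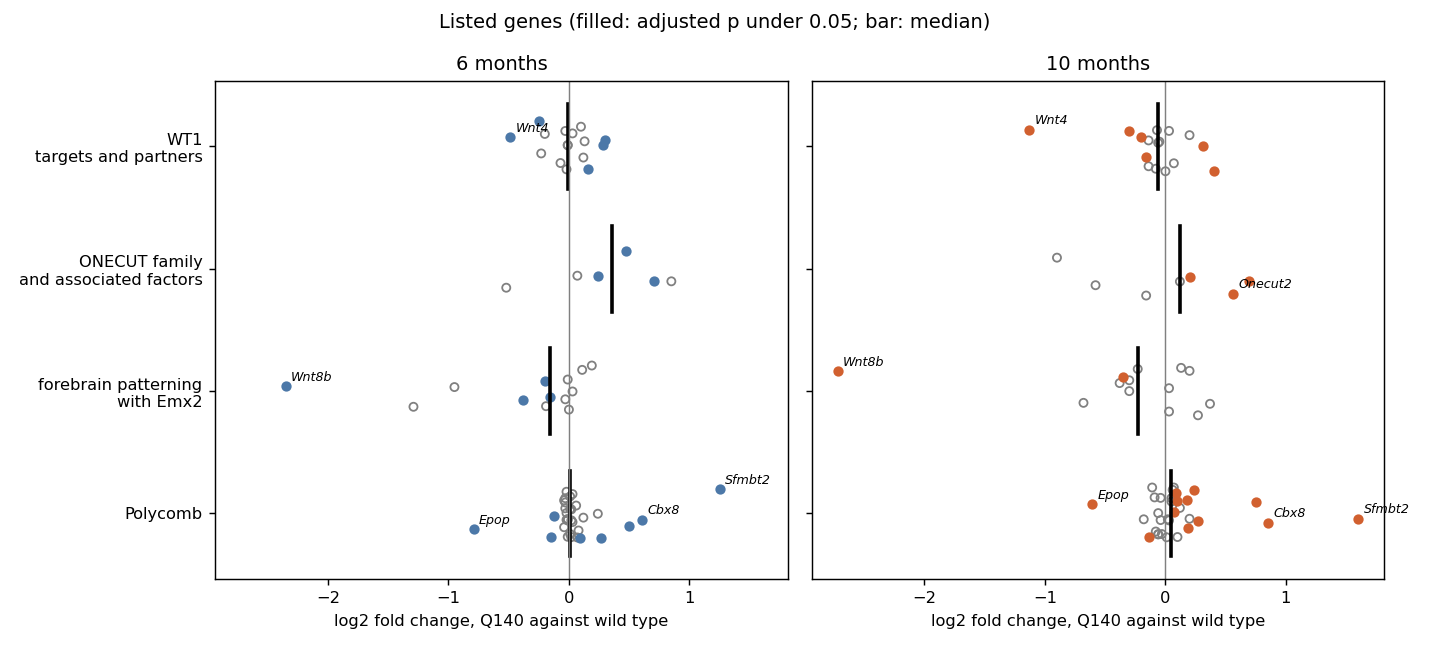
Log2 fold change of Q140 against wild type (x axis) at 6 months (left) and 10 months (right) for the tested genes of 4 lists (y axis); filled points passed an adjusted p of 0.05, bars are list medians and names mark some of the called genes with large changes. The list medians lay between -0.226 and 0.356, against medians of 0.0079 and 0.0053 over all genes, with Wnt8b (-2.35 and -2.72) and Sfmbt2 (1.25 and 1.60) at the ends.

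The genes whose 12 group means of log2(CPM + 0.1) tracked a member most closely were counted among 17481 genes as a description. For Wt1 they were Nagk, Rab9b, Nfya, Ccdc177 and Rbm11, with Pearson's r from 0.9786 to 0.9688. For Onecut1 they were Ccdc177, Sfmbt2, Hdac1, Zfp92 and Asl, from 0.9721 to 0.952, so that Ccdc177 stood in both sets. For Emx2 they were Pqbp1, Ensa, Myl6, Lgi1 and Polr2d, from 0.9689 to 0.9487, and for Emx2os Sdccag8, Stk11ip, Surf2, Ap1m1 and 1110051M20Rik, from 0.943 to 0.9305. At 10 months Nagk stood at 27.2 CPM in Q140 and 18.1 CPM in wild types, Sfmbt2 at 12.5 and 4.12 CPM, and Sdccag8 at 23.2 and 19.8 CPM. The sets moved with the measure: with a constant of 1 in place of 0.1, 2, 1, 3 and 2 of the 5 genes were kept in the order Wt1, Onecut1, Emx2 and Emx2os, and with Spearman's rho over 96 libraries 1, 0, 1 and 0.

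Markers of cell types moved with the Q140 groups. For comparison, 11.7% of all genes were higher and 12% lower in Q140 at 6 months, and 10.8% and 8.45% at 10 months. Of 15 striatal projection neuron markers 14 were lower at 6 months and 10 at 10 months, and their summed level ran from 6310 to 9280 CPM at 6 months and from 6330 to 9080 CPM at 10 months in Q140, against 10700 to 14800 CPM and 8820 to 15200 CPM in the wild types of these ages. Of 10 thalamus markers 5 were higher in Q140 at 6 months and 1 was lower at 10 months. Their summed levels were 148 to 941 CPM and 120 to 608 CPM against 131 to 536 CPM and 132 to 1170 CPM in wild types. Their mean level in Q140 at 6 months was 4.69 ± 0.92 log2 CPM. The wild types housed with Q20 and Q50 mice stood at 4.53 ± 0.75 and 3.4 ± 0.48, so Q140 was close to the former cohort. At 10 months the mean level was 3.53 ± 0.81 log2 CPM in Q140 against 4.6 ± 1.13 and 4.5 ± 1.04 in these cohorts. Of 10 astrocyte markers 1 was higher and 2 lower at 6 months and 4 were lower at 10 months, of 10 cortical projection neuron markers 1 was higher and 3 lower at 6 months, of 10 choroid plexus markers 1 was lower at 6 months, and 0 of 8 ependyma and 0 of 10 meninges markers passed. Of the 8 markers of kidney podocytes, the adult cells known for WT1, 6 were tested and 1 was higher and 1 lower at each age. Their summed level ran from 189 to 257 CPM in Q140 at 10 months and from 195 to 257 CPM in wild types, with Nphs1 at a median of 2.33 and 2.64 CPM in Q140 at 6 and 10 months and medians from 2.66 to 2.99 CPM in the wild-type cohorts. Tcf21 was at 0 in all Q140 libraries and at most at 0.0328 CPM in wild types. Within Q140, correlations of the 4 genes with 4 of these lists did not pass after adjustment. Some fits also took the thalamus or cortex marker level as a covariate. The part of the markers in the Q140 levels of the 4 genes was otherwise not tested.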

How the data were processed

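Striatal mRNA of 96 mice was sequenced; total RNA was column purified and an enriched subfraction was taken for standard Illumina libraries, per the labels' protocols. CASAVA 1.8.2 is named in the submitters' processing notes; for the aligner, quantifier, genome build and strand setting nothing was given in the sources at hand. The submitters, here called the authors, deposited expected counts (estimated reads per gene, not normalized; 27.67% of non-zero values fractional at a tolerance of 0.001) and FPKM values, which the authors scaled by gene length and library total. All columns matched a label. Symbols came from GENCODE M21 by identifier (37693 matched, 1486 not).

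The members, gene lists and tests were chosen with earlier results of these data known. Expected counts were rounded and tested by quasi-likelihood in edgeR 4.0.16 (TMM factors, filterByExpr, robust dispersion) in R 4.3.3, two-sided, with Benjamini-Hochberg adjustment over all genes tested and a threshold of 0.05. Each age was fitted alone with 48 libraries, 6 groups and sex (17339 and 17285 genes); age differences used 96 libraries, 12 groups and sex (17670 genes); sexes of Q140 used group-by-sex means. All 4 members passed the filter, Wt1 and Onecut1 mostly through the Q140 libraries in which they were high. Correlations used exact permutations over 8 libraries in scipy 1.17.1, on log2(CPM + 0.1). Intervals are 95% and cover the spread between libraries.

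The text names, by a rule, the members and Htt, the 5 genes most like each member, the 3 nearest annotated genes in the tables on each side, and from each list the 2 called genes with the smallest p per age; other names say so or did not pass. Some genes that this rule selects are not reported here. The fit was tested on simulated counts. Alternatives were size factors by RLE, all genes unfiltered, genes at CPM 1 or more in 8 libraries, DESeq2 1.42.0, limma 3.58.1 on log2(FPKM + 0.1 or 1), a prior count of 2, a replicate block, library number, thalamus and cortex marker covariates, each sex alone, fits of only the groups compared and each library left out. Added after seeing the data were limma without a filter and a fit without 3 libraries low in projection neuron markers; an earlier rule, on thalamus markers, had set aside none.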

Additional observations from a re-analysis of the deposited data

Results flagged for a closer look

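Wt1 in the 10-month wild types housed with Q20 mice had 1 library, F1 at 0.156 CPM, far from the other 7 of its group, a matter of 5 counts. Onecut1 in 10-month Q50 mice had 1 library far above the rest, F1 at 0.725 CPM with 25 counts, where the group median was 0.174 CPM; it is the highest Onecut1 level outside Q140. Emx2 in 6-month Q50 mice had a high library at 7.22 CPM, M3, above every wild type of its age. These are 3 of 48 groups examined, and chance alone marks about 1 in 20.

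The change of Wt1 with age differed between Q92 mice and wild types, by a log2 difference of 2.81 in the test of the difference itself. The wild types in it also entered the choice of the genes. Q92 libraries held 0 to 4 counts at 6 months and 4 to 20 at 10 months.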

How the results depend on the processing

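Of the Q92 results, the Wt1 rise at 10 months against Q20, against wild types and its growth kept its direction under every alternative that gave a value. It did not pass on log2(FPKM + 1) (0.15, 0.15 and 0.16; limma adjusted p 0.166, 0.204 and 0.299), in females alone (2.11, 1.91 and 3.13; edgeR adjusted p 0.301, 0.129 and 0.237) or in males alone (2.88, 2.91 and 2.85; edgeR adjusted p 0.374, 0.243 and 0.995), so that 0 of 4 genes were called there. With 1 library left out it ran from 2.17 to 2.91 (edgeR adjusted p 0.00157 to 0.0198), from 2.09 to 2.56 (9.71e-05 to 0.00423) and from 2.61 to 3.09 (0.00511 to 0.055), and for growth the number called ran from 0 to 1. Against wild types at 6 months the number called in Q92 ran from 0 to 1, the call being Emx2 at -0.28 without the Q92 library M3 (edgeR adjusted p 0.0312).

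Signs turned only for values that passed under no setting. In Q92 against Q20 at 6 months, Wt1 turned to 0.059 on log2(FPKM + 0.1) with and without a filter, 0.0094 on log2(FPKM + 1), 0.021 with the thalamus covariate and 0.46 in males, and Emx2os to 0.11 with the L number, 0.048 with the thalamus covariate, 0.0035 with the cortex covariate and 0.05 in males. Leaving out single libraries gave -0.22 to 0.16 for Wt1 and -0.097 to 0.048 for Emx2os. Against wild types at 6 months, males alone gave 0.07 for Wt1, -0.59 for Onecut1 and 0.1 for Emx2os, the L number gave -0.46 for Onecut1, and single libraries -0.16 to 0.29 for Onecut1. At 10 months Onecut1 against Q20 was 0.62 without the 3 libraries that stood apart and -0.59 to 0.096 without single libraries. Emx2os against Q20 was -0.038 in males and -0.064 without the 3 libraries. Against wild types Emx2 was -0.0019 in females, and Emx2os was -0.056 in males and -0.0009 to 0.11 without single libraries. Growth in Q92 was -0.31 for Onecut1 in females and -0.16 for Emx2os in males.

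The size of the Q140 differences depended on the constant added to low values. On log2(FPKM + 0.1), filtered or not, Wt1 was 1.83 and 3.68 against wild types, 1.92 and 2.82 against Q92 and 1.84 for growth, and on log2(FPKM + 1) it was 0.46 and 1.30, 0.47 and 1.16, and 0.84. Onecut1 on log2(FPKM + 0.1) was 1.25 and 2.62 against wild types and 1.21 and 2.52 against Q92, the 6-month values without a filter, and on log2(FPKM + 1) it was 0.74 and 0.72 at 10 months and 0.48 for growth. Emx2os on that scale was 0.1 against Q92 at 6 months, 0.49 and 0.47 against wild types and Q92 at 10 months and 0.43 for growth. A prior count of 2 gave 4.93 for Wt1 and 4.02 for Onecut1 against wild types at 10 months and 3.18 for Wt1 against Q92 at 6 months. Males alone gave 6.49 for Wt1 against wild types at 10 months, 0.30 for Emx2os at 6 months and 2.28 for growth of Onecut1, which was 1.17 in females and 2.31 with the L number. With the thalamus covariate Onecut1 was 4.59 and Emx2 0.31 against Q92 at 10 months, and growth of Emx2 was 0.39. For the changes with a covariate, a sex or a set of libraries the cause was not tested.

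The replicate numbers did not pair the libraries: same-numbered libraries of an age had correlations of -0.635 to 0.544, with means of 0.035 and -0.007 over 120 pairs per age. With the replicate block Wt1 in Q92 was 2.36, 2.27 and 2.82 (edgeR adjusted p 0.00876, 0.000981 and 0.0214), and the block changed no other call among the members. Of 1095 refitted values in comparisons given as counts, 102 turned sign and 0 newly passed. Counts of list genes called in Q140 moved with the setting, from 3 to 13 for Polycomb genes higher at 10 months, and Wnt4 at 6 months lost its call in 10 of 24 fits with 1 library left out. Filters on CPM or FPKM, and fits of only the groups compared, gave no value where they dropped Wt1 or Onecut1. Depth limits Wt1 and Onecut1 outside Q140, where a library held 0 to 25 counts.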
